A study of Homo sapiens with 6 samples.

Results

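The ZNF genes are the human genes whose symbol is ZNF and a number, most of which encode C2H2 zinc finger proteins. Those taken here were selected on their level, with a mean over 6 RNA sequencing libraries of at least 15 CPM, a unit in which counts are scaled to the same total in each library. That rule took 105 of the 504 ZNF-numbered genes, among 28979 gene IDs counted. The level that chose them is described below and was not tested, whereas the rule uses no difference between the groups. The lowest members were ZNF48 at 15.02, ZNF331 at 15.21 and ZNF114 at 15.54 CPM, and the nearest genes left out were ZNF710 at 14.96, ZNF549 at 14.91 and ZNF839 at 14.80 CPM before scaling between libraries.

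All 6 libraries were made from MDA-MB-231, an established human breast cancer cell line of mesenchymal, triple-negative character, and were labelled Con (3 libraries) and Ang (3 libraries). The series design speaks of breast cancer cells given exosomes, vesicles that cells shed, of either normal or hypertrophic cardiomyocytes. The labels used here do not say what Con and Ang stand for, nor give a dose or a time of exposure, so both names are used as they stand. Nothing in the labels states whether the libraries of a group are of separate cultures. The p-values below therefore reflect spread among libraries that may be technical in part or whole.

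A C2H2 zinc finger is a short protein loop held by a zinc ion, and a row of such fingers reads a stretch of DNA. Many ZNF proteins also carry a KRAB box, which binds the co-repressor TRIM28. TRIM28 brings the histone methyltransferase SETDB1, heterochromatin protein 1 (CBX1, CBX3 and CBX5) and the NuRD deacetylase complex, and the best studied targets of this machinery are transposable elements. KRAB zinc finger genes arose largely by tandem duplication and stand in clusters, above all on chromosome 19. Other ZNF proteins carry a SCAN domain, which pairs proteins with each other, or act outside transcription, for example on ribosomes and RNA.

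Library totals ran from 3369212 to 5437190 counts, and the 105 genes together held 0.395% to 0.428% of them. Of 8 markers of the line, 7 were at or above 15 CPM, led by VIM at 980 CPM, and SPARC was at 0.239 CPM. Among markers expected to be low, ESR1, PGR and CDH1 were under 1 CPM, while EPCAM was at 9.80 and ERBB2 at 105 CPM. Of 9 cardiomyocyte markers in the files, 2 were above 1 CPM (TTN at 244 CPM and NPPA at 9.51 CPM), and both share exon bases with genes on the opposite strand. The summed cardiomyocyte markers ran from 205 to 310.1 CPM in Con and from 215 to 258 CPM in Ang, and MYH6, MYL2 and RYR2 were under 0.05 CPM. In 250 pairs of a coding gene and a non-coding gene lying under its exons on the opposite strand, the median ratio of non-coding to coding counts per base was 39.3, 23.2 and 41.1 for Con replicates 1, 2 and 3, whose order is kept throughout, and 35.0, 32.9 and 35.4 for those of Ang. Con replicate 2 stood apart with the lowest ratio, and the main results of the group comparison are also given without it.

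The build of the proteins is described here beside that of the remaining ZNF genes, with no test, since the level chose the members. A KRAB box was found in 53 of the 104 coding members (51.0%), against 266 of 376 coding ZNF genes below the level threshold (70.7%). The number of C2H2 fingers per protein had a median of 9 in the members and 11 in the other ZNF genes. It ran from 0 in ZNF862, ZNF330 and ZNF185 to 31 in ZNF646, 32 in ZNF91 and 34 in ZNF462. ZNF91 is a KRAB protein known for silencing a family of human retrotransposons. A SCAN domain was found in 8 members, namely ZNF263, ZNF394, ZNF496, ZNF274, ZNF24, ZNF483, ZNF445 and ZNF397, and 1 member, ZNF731P, is a pseudogene.

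The promoters of the members were rich in a motif of the ETS family of activators, as were those of ZNF genes as a whole. RefSeq promoter windows on GRCh38.p14, each from 250 bases before to 50 bases after a gene start, were matched to 90 of the 105 members, which gave 134 windows. A set of 7 motifs, each spelled out with its share of windows, was searched on both strands. The ETS motif CCGGAAG stood in 40 of the 134 windows (29.9%), in 34.7% of 536 ZNF windows and in 10.3% of all 35116 windows. The shorter TTCCGG, contained in CCGGAAG read on the opposite strand and so no separate evidence, stood in 45.5% of the members' windows and 17.2% of all windows. The letters GGGCGG of the GC box, bound by SP1, stood in 61.9% of the members' windows and 45.0% of all, whereas TATAAA, the TATA box, stood in 3.73% and 11.5%. ACTACAA, the start of the long motif bound by ZNF143, itself a member, stood in 8 of the members' windows (5.97%), in 5.97% of ZNF windows and in 2.77% of all windows. CCAAT, read by NF-Y, stood in 31.3% of the members' windows and 34.6% of all, and the E-box CACGTG in 7.46% and 7.26%. The median share of G and C was 63.8% in the members' windows, 61.3% in ZNF windows and 58.7% in all windows. The motif shares were not adjusted for it. Windows of a gene with several starts can overlap, and a match of letters describes the window and is no evidence of binding.

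The windows printed here stop 30 bases after the start. For each of 2 motifs they are those of 3 members that hold it and lie clear of exons on the opposite strand. The 3 were picked for a high level per length. Not all members were considered for printing, so others of higher level may hold the motif. For CCGGAAG these are ZNF622 (chr5:16465771-16466050, minus strand), ZNF132 (chr19:58440124-58440403, minus strand) and ZNF83 (chr19:52638326-52638605, minus strand). Capitals mark the motif, read as CCGGAAG or, on the opposite strand, as CTTCCGG.
ZNF622: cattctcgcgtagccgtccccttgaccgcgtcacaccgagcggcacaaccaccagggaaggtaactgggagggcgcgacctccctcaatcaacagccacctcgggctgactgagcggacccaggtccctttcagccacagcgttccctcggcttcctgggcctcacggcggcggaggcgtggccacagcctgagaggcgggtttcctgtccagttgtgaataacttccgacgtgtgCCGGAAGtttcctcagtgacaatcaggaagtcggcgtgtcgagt
ZNF132: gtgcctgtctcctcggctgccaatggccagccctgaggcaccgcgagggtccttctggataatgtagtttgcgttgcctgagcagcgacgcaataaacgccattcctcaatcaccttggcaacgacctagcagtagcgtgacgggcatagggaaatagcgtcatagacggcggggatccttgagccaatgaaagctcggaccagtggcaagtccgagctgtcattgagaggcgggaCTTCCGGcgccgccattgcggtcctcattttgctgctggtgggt
ZNF83: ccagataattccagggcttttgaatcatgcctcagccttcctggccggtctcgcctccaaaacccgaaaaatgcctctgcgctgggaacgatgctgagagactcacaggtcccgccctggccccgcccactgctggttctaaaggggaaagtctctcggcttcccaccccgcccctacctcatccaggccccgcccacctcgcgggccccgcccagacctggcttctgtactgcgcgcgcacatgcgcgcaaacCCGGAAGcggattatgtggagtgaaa
The motif began 14 bases before the start in ZNF622 and in ZNF132, and at base 5 of the transcript in ZNF83. ZNF622 takes part in the maturation of the large ribosomal subunit, whereas ZNF132 and ZNF83 are proteins made mainly of fingers.

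For ACTACAA the windows are those of ZNF185 (chrX:152914182-152914461, plus strand), a LIM domain protein in which no finger was found, ZNF697 (chr1:119648237-119648516, minus strand) and ZNF277 (chr7:112206445-112206724, plus strand). Capitals mark ACTACAA or, on the opposite strand, TTGTAGT.
ZNF185: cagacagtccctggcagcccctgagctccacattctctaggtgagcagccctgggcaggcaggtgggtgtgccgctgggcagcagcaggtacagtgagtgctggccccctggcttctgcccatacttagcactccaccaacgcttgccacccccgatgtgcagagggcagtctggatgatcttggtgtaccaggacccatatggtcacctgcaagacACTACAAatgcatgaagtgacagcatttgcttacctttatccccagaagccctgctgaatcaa
ZNF697: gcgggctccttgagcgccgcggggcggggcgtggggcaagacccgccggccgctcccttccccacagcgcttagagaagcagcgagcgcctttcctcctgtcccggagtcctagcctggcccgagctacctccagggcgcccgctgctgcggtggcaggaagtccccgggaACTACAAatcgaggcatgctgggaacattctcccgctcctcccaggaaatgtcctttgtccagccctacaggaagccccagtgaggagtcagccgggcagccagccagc
ZNF277: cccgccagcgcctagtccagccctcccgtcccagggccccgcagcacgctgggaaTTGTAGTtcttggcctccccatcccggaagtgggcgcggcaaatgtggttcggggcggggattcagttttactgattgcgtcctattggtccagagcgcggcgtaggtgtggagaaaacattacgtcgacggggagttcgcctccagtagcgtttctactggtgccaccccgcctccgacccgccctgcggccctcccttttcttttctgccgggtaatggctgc
The motif lay 33 bases before the start in ZNF185, 79 in ZNF697 and 195 in ZNF277. ZNF143 itself was at 18.0 ± 5.43 CPM in Con against 19.2 ± 4.17 in Ang (SD, n = 3).

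Most members had a modest count level and a few stood far above the rest. From here on CPM values carry the TMM scaling between libraries. Of the 105 genes, 64 lay between 15 and 30 CPM, 36 between 30 and 100 CPM and 5 at or above 100 CPM, by their means before scaling. The median was 23.6 CPM, and the 2 highest genes held 15.7% and the 5 highest 25.4% of the members' summed CPM. Each member had between 363 and 7990 counts over the 6 libraries, and the lowest single count was 19. The highest library was a median of 1.66 times the lowest for a member, from 1.06 times in ZNF37A to 4.29 times in ZNF114, and it was above 2 times for 17 members.

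ZNF135 (chr19:58059239-58086310, plus strand, GRCh38, GENCODE 29), a KRAB protein with 16 fingers, had the highest level, with 324, 258 and 369 CPM in Con against 354, 347 and 339 in Ang. ZNF814 (chr19:57848731-57889074, minus strand), a KRAB protein with 23 fingers, followed with 357, 251 and 415 CPM in Con against 291, 291 and 309 in Ang. Con replicate 2 was the lowest library for both genes, the Con range enclosed the Ang range in each, and the groups overlapped. ZNF276 (chr16:89720400-89740903, plus strand), with 5 fingers and no KRAB box, had 138, 162 and 211 CPM in Con against 189, 170.4 and 190.4 in Ang, again with overlapping groups. ZNF891 (chr12:133106817-133130473, minus strand), a KRAB protein, had 148, 101 and 145 CPM in Con against 125, 108 and 108 in Ang. ZNF263 (chr16:3263800-3301401, plus strand), which joins a SCAN domain and a KRAB box to 9 fingers, had 128, 84.7 and 105 CPM in Con against 109, 91.3 and 92.1 in Ang. In ZNF891 and ZNF263, too, Con replicate 2 was the lowest of the 6 libraries, and the groups overlapped.

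**Figure D1:**
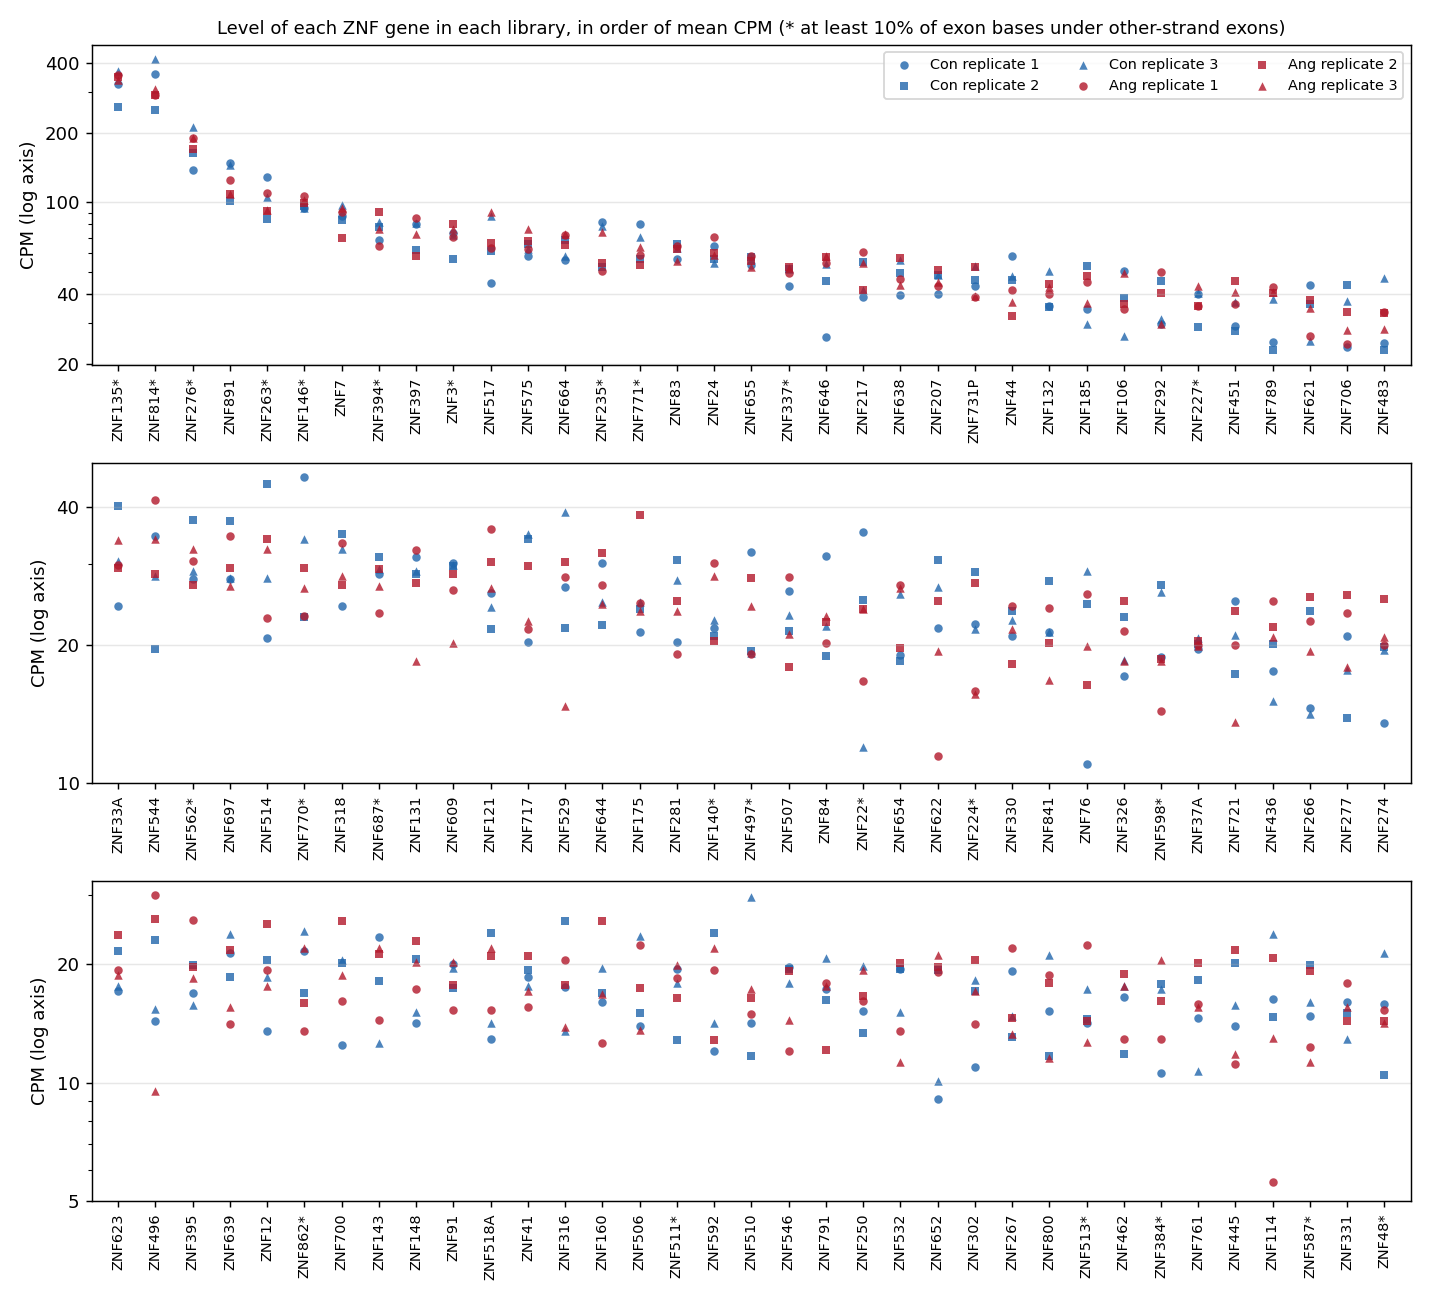
CPM (log axis) of each of the 105 ZNF genes in each library, in order of mean level over 3 rows of genes, with colours for Con and Ang and a symbol for each replicate; an asterisk marks at least 10% of exon bases under the opposite strand. ZNF135 and ZNF814 lie above 250 CPM in all 6 libraries, and the groups overlap for the 5 highest genes.

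Per kilobase of exon, a scale that adjusts for exon length but not for overlap with the opposite strand, the order changed below ZNF135. ZNF135 had 51.7 CPM per kilobase, ZNF814 25.3, ZNF146 23.8, ZNF276 23.8 and ZNF394 21.9. The pseudogene ZNF731P, clear of the opposite strand, followed at 21.0, then ZNF575 at 20.4 and ZNF263 at 14.7. ZNF891, whose exons span 15455 bases, fell to 7.92. The neighbours ZNF814, ZNF146, ZNF276 and ZNF394 lay within the spread of their libraries. The 4 highest KRAB members on this scale were ZNF135, ZNF814, ZNF394 and ZNF263. Of the 10 highest members per kilobase, 7 shared at least 10% of their exon bases with a gene on the opposite strand.

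By role, 10 of 11 listed promoter and chromatin factors were members, as were 7 of 11 listed partners of repressor complexes, 7 of 10 listed RNA, ribosome and mitosis factors and 2 of 8 listed genes linked to breast cancer. ZNF366 of the last list was not matched in the files. Among the promoter and chromatin factors, ZNF146 (chr19:36214602-36238774, plus strand), a protein made almost wholly of its 10 fingers, had 94.2, 96.0 and 94.4 CPM in Con against 107, 99.3 and 102 in Ang. All Ang libraries lay above all Con libraries for ZNF146, by a mean of 102.6 against 94.9 CPM. Exons on the opposite strand overlie 10.8% of the exon bases of ZNF146, so its level is uncertain. ZNF24, a SCAN factor, was at 58.4 ± 5.28 CPM in Con against 63.4 ± 6.36 in Ang, and ZNF281, a factor linked to the epithelial to mesenchymal transition, at 26.2 ± 5.32 and 22.6 ± 3.10 CPM (SD, n = 3). ZNF410, which controls the NuRD subunit CHD4, was the factor of that list that was no member, at 1.04 CPM. CHD4 itself was counted at 3.26 CPM, but 10.2% of its exon bases lie under exons on the opposite strand, so its level is uncertain. A link between these levels was not tested.

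ZNF217, an oncogene amplified in breast cancers that works with the CoREST complex, led the partners of repressor complexes. It had 38.9, 55.1 and 41.8 CPM in Con against 60.7, 41.9 and 54.3 in Ang, with overlapping groups. ZNF687 and ZNF592, partners of ZMYND8, were at 29.6 ± 1.34 and 16.7 ± 6.39 CPM in Con against 26.5 ± 2.90 and 18.1 ± 4.69 in Ang (SD, n = 3). ZNF644, a partner of the histone methyltransferases EHMT1 and EHMT2, was at 25.7 ± 4.10 CPM in Con against 27.8 ± 3.67 in Ang. ZNF652, a transcriptional repressor, was with ZNF217 the other breast cancer linked member, at 9.08, 19.3 and 10.1 CPM in Con against 19.1, 19.7 and 21.1 in Ang. Con replicate 2 lay within the Ang range for ZNF652, so the groups overlapped through that library. ZNF703, a breast cancer oncogene of the luminal subtype, was below the threshold at 7.82 CPM.

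Among the factors that act on RNA and ribosomes, ZNF638, an RNA-binding protein also known to silence unintegrated retroviral DNA, had the highest count level, with 48.3 ± 8.18 CPM in Con against 49.2 ± 7.15 in Ang (SD, n = 3). Per kilobase ZNF622 led, at 13.2 CPM, before ZNF330, a nucleolar protein, at 8.64. ZNF622 had 21.8, 30.6 and 26.7 CPM in Con against 11.4, 25.0 and 19.4 in Ang. ZNF598, the ubiquitin ligase that marks collided ribosomes, had 18.8, 27.0 and 26.1 CPM in Con against 14.4, 18.7 and 18.5 in Ang. All Ang libraries lay below all Con libraries for ZNF598, whereas the groups overlapped for ZNF622, and Ang replicate 1 was the lowest library for both.

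Fewer of the chromosome 19 genes reached the threshold than of ZNF genes elsewhere. Chromosome 19 held 243 of the 504 ZNF genes (48.2%) but 31 of the 105 members (29.5%), so 12.8% of its ZNF genes were members. On chromosome 1 there were 8 members among 20 ZNF genes, on chromosome 3 there were 6 of 19, on chromosome 7 there were 9 of 32, on chromosome 16 there were 7 of 30, and none of the 3 ZNF genes on chromosome 14 or of the 3 on chromosome 22 was a member. Since the level chose the members, this is a description with no test.

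**Figure D2:**
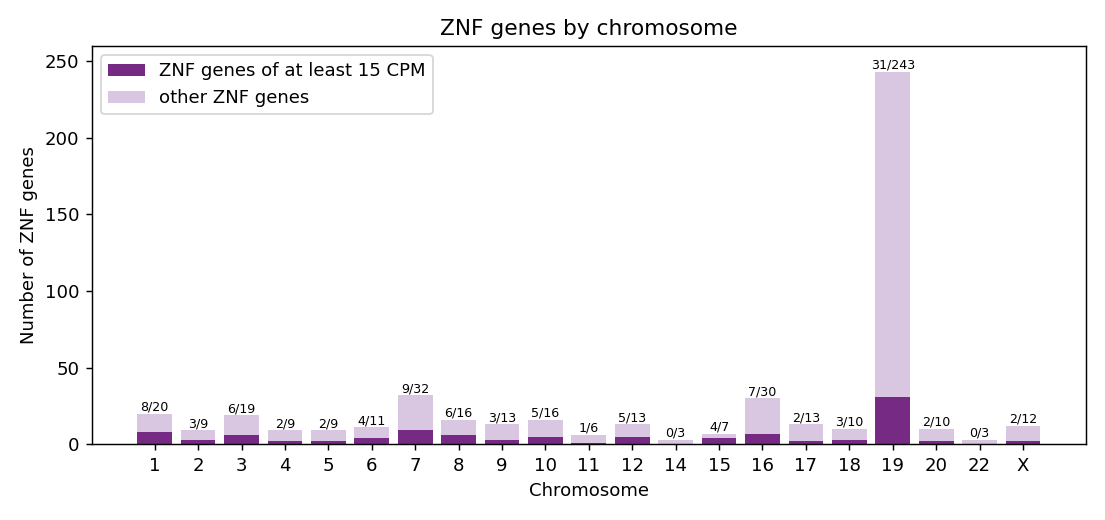
Number of ZNF genes on each chromosome (GRCh38), split into those of at least 15 CPM and the rest, with both numbers printed over each bar as members/all. Chromosome 19 holds 243 ZNF genes, of which 31 are members.

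Of all ZNF genes, 364 (72.2%) stood in 48 clusters, defined as runs of neighbouring ZNF genes with gaps of at most 250 kb, and 59 of the 105 members (56.2%) did. Outside clusters, 32.9% of 140 ZNF genes were members. A total of 29 clusters held a member and 14 held 2 or more. The 14 clusters of chromosome 19 held 232 ZNF genes, of which 29 (12.5%) were members. With gaps of at most 100 kb 57 members were in clusters, and with gaps of at most 500 kb 63 were.

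The cluster at the long-arm end of chromosome 19 (chr19:57191500-58481230) held 43 ZNF genes and 7 members, ZNF135, ZNF814, ZNF132, ZNF544, ZNF497, ZNF274 and ZNF587. Its members' summed level was 811, 623 and 918 CPM in Con against 777, 784 and 781 in Ang, so that the Ang libraries lay close together between Con replicate 2 and the other Con libraries. The next largest (chr19:51571298-53580269) held 42 ZNF genes and 6 members, ZNF83, ZNF175, ZNF841, ZNF160, ZNF761 and ZNF331, which summed to 146, 167 and 153 CPM in Con against 160, 182 and 144 in Ang. A cluster of 28 ZNF genes (chr19:11483427-12640098) held 3 members, ZNF44, ZNF700 and ZNF791, which summed to 88.5, 82.3 and 89.0 CPM in Con against 75.7, 70.1 and 73.4 in Ang. There all Ang libraries lay below all Con libraries, and the groups overlapped in the rest of the 14 clusters with 2 or more members. That order held for 4.54% of all tested genes taken singly, a share that is no reference for a sum over a cluster. ZNF44 had the largest part of the sum, and the groups overlapped for ZNF700 and for ZNF791. The sums of clusters were not tested. In contrast to these sparse clusters, all 3 ZNF genes of a small cluster on chromosome 7 (chr7:99472841-99576453) were members, ZNF394, ZNF655 and ZNF789. A cluster on chromosome 12 (chr12:132918308-133214831) held 3 members among 7 ZNF genes, ZNF891, ZNF140 and ZNF84.

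Some neighbouring ZNF genes face each other across the strands. The strand setting of the counting is not given in the sources used here, while genes wholly covered by a member on the opposite strand held counts of their own, as described below. How far the count of an overlapped gene comes from its own transcript was not tested, so the levels of overlapped members are uncertain. Over all genes, those with no exon base under the opposite strand held 21.7% to 28.7% of a library's counts. Whether the strand setting also bears on the levels of members clear of the opposite strand was not tested. Exon bases under an exon of another gene on the opposite strand were present in 49 members (46.7%), against 27.1% of the other ZNF genes and 59.3% of all genes of at least 15 CPM. At least 10% of exon bases were so overlapped in 25 members (23.8%), against 9.27% of the other ZNF genes and 31.7% of all genes of at least 15 CPM. The median level was 6.72 CPM per kilobase for those 25 members, 4.48 for the 24 with a smaller overlap and 3.22 for the 56 members clear of the opposite strand.

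The share was largest in ZNF337 (chr20:25674215-25696841, minus strand), a KRAB protein with 19 fingers, where 73.8% of exon bases lie under ZNF337-AS1. ZNF337-AS1 had 328 CPM and ZNF337 49.97 CPM, or 61.9 and 13.1 CPM per kilobase. ZNF22 shared 45.3% of its exon bases, mostly with the pseudogene CEP164P1 at 294 CPM, and was itself at 22.8 CPM. ZNF22 had 35.3, 25.0 and 11.95 CPM in Con against 16.7, 24.0 and 24.0 in Ang, a spread in Con that enclosed Ang. ZNF224, a KRAB protein with 18 fingers, shared 40.5% of its exon bases, with ZNF225-AS1 at 219 CPM, and was itself at 21.9 CPM. ZNF587 shared 33.3% with ZNF814, and the level was 2.12 CPM per kilobase for ZNF587 and 25.3 for ZNF814. In all 4 cases the partner had the higher count.

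Over the 25 members with at least 10% overlap, the main partner had the higher level per kilobase in 14 and the member in 11. The partner was a non-coding gene or pseudogene in 9 and was the higher in 8 of these, and it was a coding gene in 16 and was the higher in 6. ZNF135 went the other way, at 51.7 CPM per kilobase against 2.71 for ZSCAN18 across from it, as did ZNF263, at 14.7 against 3.13 for TIGD7, and ZNF146, at 23.8 against 1.12 for ZNF565. ZNF276 and FANCA, which share 2302 exon bases, were nearly level at 23.8 and 21.4 CPM per kilobase. In 4 pairs both genes were members, with 2445 shared bases between ZNF814 and ZNF587, 970 between ZNF227 and ZNF235, 728 between ZNF891 and ZNF140 and 445 between ZNF394 and ZNF789.

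In 4 cases a non-coding gene was covered over at least 90% of its exon length by a member. In all 4 its level per kilobase was above that of the member, by 65.9, 20.3 and 10.3 times under ZNF598, ZNF770 and ZNF717. The gene under ZNF717, MIR4273, had 3.08 CPM, down to 1.35 CPM in Con replicate 2, so its ratio rests on few counts. The fourth, the small nuclear RNA pseudogene RNU6-105P under ZNF638, had 1.04 CPM, near the limit that a count of 0 allows, and is given no ratio. MIR4273 and RNU6-105P are short, with 84 and 104 exon bases. In counts they lay below their members, which had 27.2 CPM for ZNF717 and 48.7 CPM for ZNF638. ENSG00000260107, a long non-coding RNA gene wholly under the exons of ZNF598, had 288 CPM per kilobase against 4.38 for ZNF598. In counts it had 107, 125 and 178 CPM in Con against 177, 129 and 155 in Ang, and each library was above that of ZNF598. ENSG00000279364, wholly under ZNF770, had 114 CPM per kilobase against 5.60 for ZNF770.

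**Figure D3:**
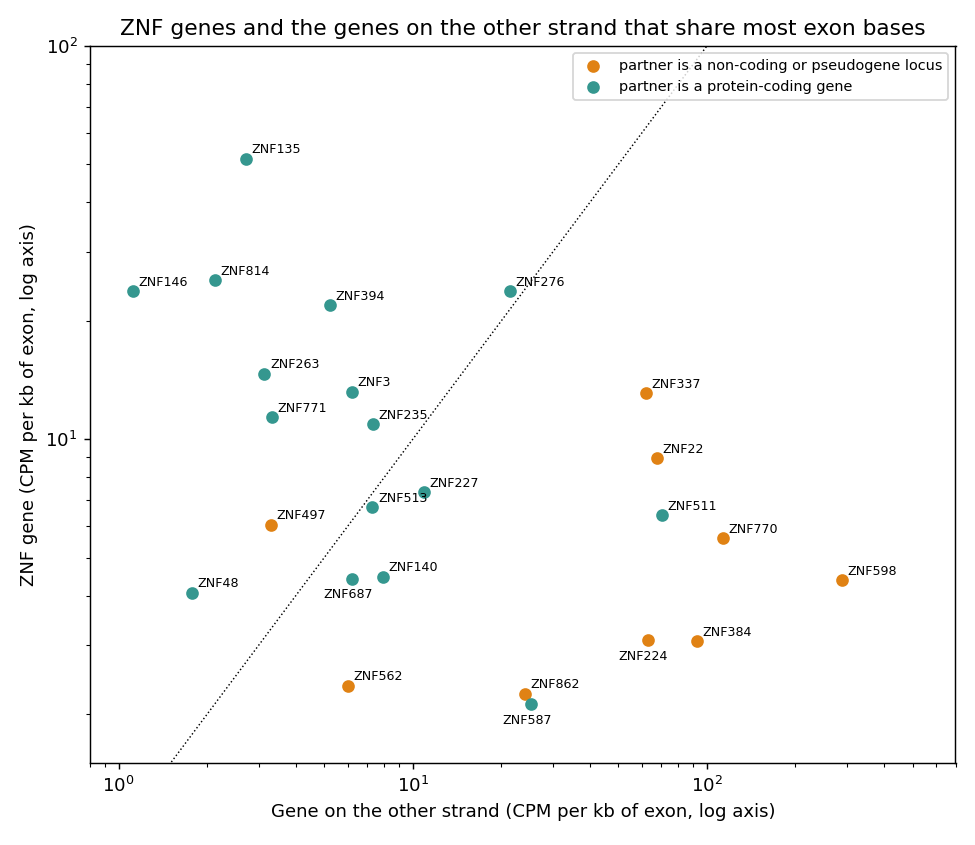
Level per kilobase of exon (CPM per kilobase, log axes) of the 25 members with at least 10% of exon bases under another gene on the opposite strand, against that of the partner with the largest overlap. Points below the dotted line of equal levels are the 14 members whose partner is higher, and the 8 of 9 non-coding partners that are higher are among them.

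The libraries differed in how the count was split between members with and without such overlap. The 25 members with at least 10% overlap summed to 1758, 1481 and 1898 CPM in Con against 1647, 1667 and 1717 in Ang. The 56 members clear of the opposite strand summed to 1331, 1509 and 1465 CPM in Con against 1432, 1545 and 1374 in Ang. The ratio of the first sum to the second was 1.32, 0.982 and 1.30 in Con and 1.15, 1.08 and 1.25 in Ang. Con replicate 2 had the lowest ratio, as it had in the 250 pairs over all genes, and the Ang libraries lay between it and the other Con libraries. The part of this difference between libraries in the values of single members was not tested.

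**Figure D4:**
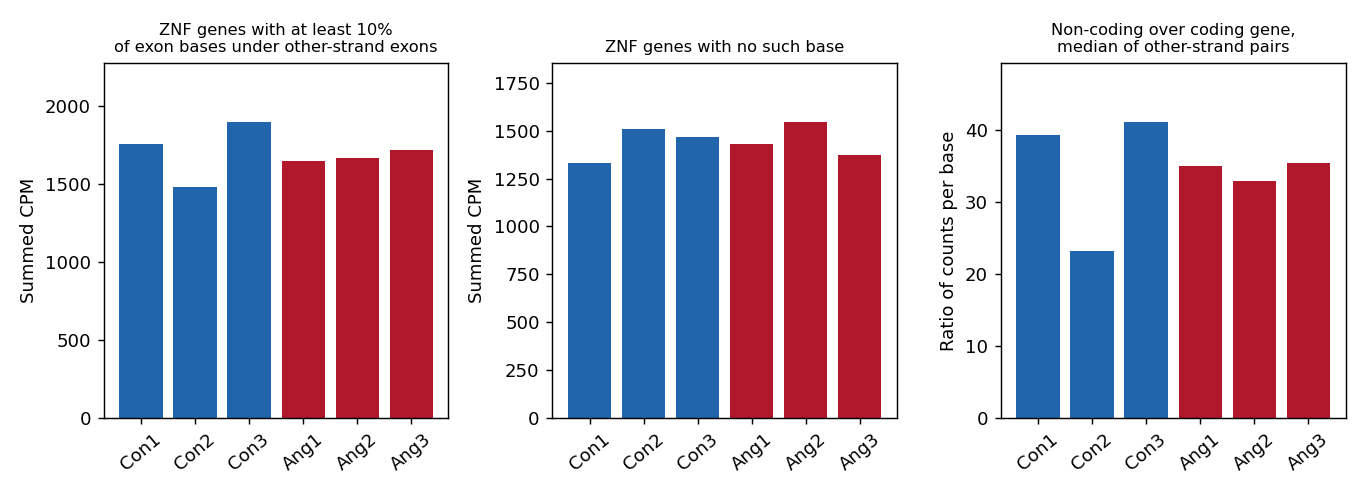
Values by library for Con and Ang, with bars for the summed CPM of the 25 members of at least 10% overlap (left), the summed CPM of the 56 members clear of the opposite strand (middle) and the median ratio of non-coding to coding counts per base over 250 pairs (right). Con replicate 2 is the lowest library in the left panel (1481 CPM) and the right panel (23.2).

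Ang was then compared with Con across all genes with edgeR's quasi-likelihood test, to ask which genes differed between cells of the 2 groups. None of the 105 members passed an adjusted p of 0.05, where 0 of 14547 tested genes (0%) passed and the smallest adjusted p was 0.999. All 105 members passed the filter on low counts. At an unadjusted p under 0.05 there were 3 members (ZNF789, ZNF646 and ZNF44), or 3 of 105, where 3.4% of all tested genes (494) were. Among the 8151 genes of at least 15 CPM, 219 were. DESeq2 gave 2 members and limma-voom 4 at that unadjusted level, and neither called a member after adjustment. Log2 fold changes, Ang minus Con, were positive in 56 members and negative in 49, with a median of 0.03 and a range of -0.50 to 0.62, beside a median of -0.01 over all tested genes, of which 49.2% were positive.

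The data bounded the changes of most members. A 2-fold change in either direction lay outside the 95% interval for 100 of the 105 members (95.2%), where it did so for 64.2% of all tested genes and for 95.6% of genes of at least 15 CPM. The exceptions were ZNF789, ZNF622, ZNF598, ZNF652 and ZNF114. For ZNF135 the interval of the fold ran from 0.865 to 1.38, for ZNF814 from 0.689 to 1.10, and for ZNF217 from 0.860 to 1.54. In simulated data the test called 61.3% of members changed 2-fold (46 of 75) and 100% of members changed 4-fold (75 of 75). Those counts were drawn gene by gene, with no shift shared across a library, so these shares may not hold for the present libraries.

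All 3 Ang libraries were above all 3 Con libraries for 6 members (ZNF146, ZNF646, ZNF789, ZNF121, ZNF436 and ZNF274), where this held for 3.62% of all tested genes, and below them for 3 members (ZNF44, ZNF609 and ZNF598), where it held for 4.54%. Without regard to direction that is 9 of 105 members, where 8.16% of all tested genes had groups that do not overlap. Among the 8151 genes of at least 15 CPM, all Ang libraries were above all Con libraries for 278 and below them for 279. ZNF789, a KRAB protein with 8 fingers, had the smallest p of the members, with 24.9, 23.0 and 38.1 CPM in Con against 42.8, 40.3 and 40.7 in Ang. Its log2 fold change was 0.54 ± 0.24 (SE, n = 3 libraries per group; edgeR adjusted p 0.999). Con replicate 3 lay near the Ang libraries, and the other 2 Con libraries far below. ZNF394, which lies on the opposite strand within the span of ZNF789 and shares 445 exon bases with it, stood at 76.3 ± 7.02 CPM in Con against 77.4 ± 12.8 in Ang (SD, n = 3).

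ZNF646, the member with 31 fingers, had 26.0, 45.6 and 53.8 CPM in Con against 54.6, 57.7 and 58.3 in Ang, and a log2 fold change of 0.45 ± 0.21 (SE). The Ang libraries were tightly grouped, and Con replicate 1 was far below the rest, and without it the log2 fold change was 0.20. ZNF44, a KRAB protein with 14 fingers, had 58.7, 46.0 and 47.8 CPM in Con against 41.7, 32.3 and 37.0 in Ang, and a log2 fold change of -0.46 ± 0.22 (SE). Its groups were separated by the gap between Con replicate 2 and Ang replicate 1. ZNF652 had the largest positive fold change, 0.62 ± 0.31 (SE), and ZNF622 the largest negative one, -0.50 ± 0.28 (SE). Leaving out single libraries moved ZNF622 between -0.25 (without Ang replicate 1) and -0.78 (without Ang replicate 2), and ZNF652 between 0.40 when Con replicate 1 was left out and 1.06 when Con replicate 2 was. The other members among the 10 with the smallest p were ZNF451 at 0.39 ± 0.23, ZNF598 at -0.48 ± 0.29, ZNF770 at -0.38 ± 0.25, ZNF121 at 0.37 ± 0.26 and ZNF114 at -0.46 ± 0.33 in log2 fold change ± SE, none past the adjusted threshold. Of these, ZNF114 went to -0.10 without Ang replicate 1 and to -0.96 without Ang replicate 2, and ZNF770 to -0.09 without Con replicate 1.

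**Figure D5:**
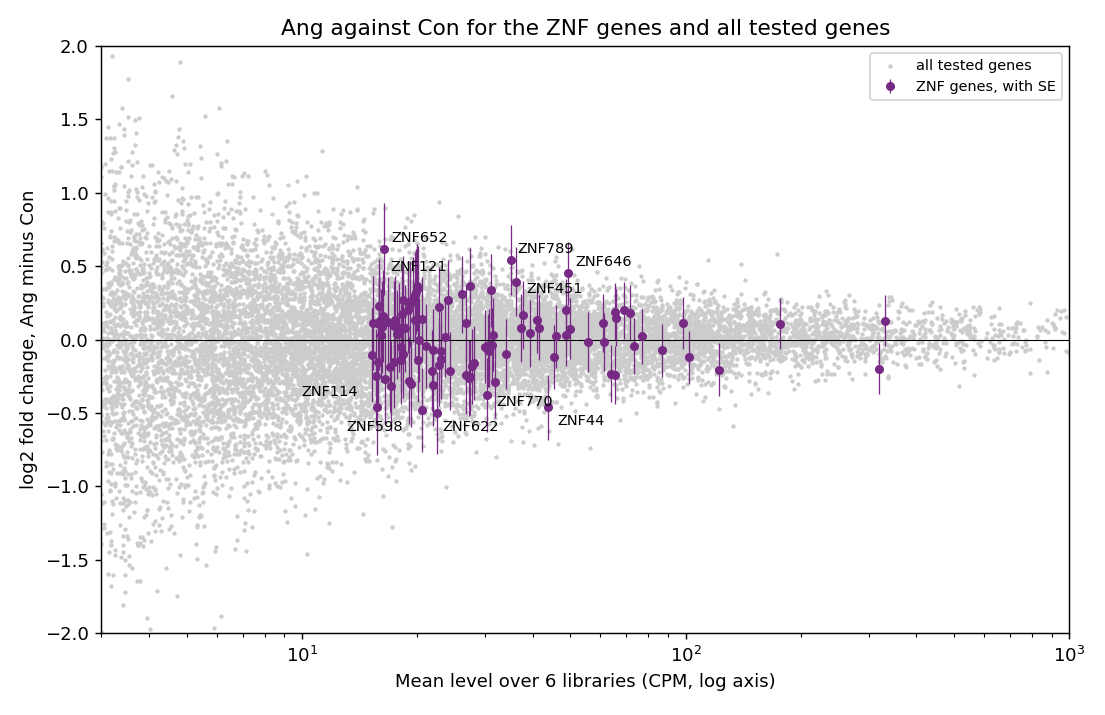
Log2 fold change of Ang minus Con (vertical axis) against the mean level in CPM (log axis) for the 105 ZNF genes, with SE bars, over the tested genes in grey, for levels of 3 to 1000 CPM and changes of -2 to 2. The members lie between -0.50 and 0.62, inside the cloud of all tested genes at the same level.

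Without Con replicate 2 the comparison called 40 genes and still 0 members. In that fit 9 of the 105 members had an unadjusted p under 0.05, where 11% of all 14867 genes tested (1633) did, with ZNF814 at a log2 fold change of -0.38 ± 0.11 and an adjusted p of 0.122 (edgeR), ZNF652 at 1.06 ± 0.35, ZNF891 at -0.36 ± 0.14 and ZNF770 at -0.61 ± 0.24 (SE). Con replicate 2 was the lowest Con library for ZNF814, ZNF891 and ZNF770 and was the highest for ZNF652. The log2 fold change went from 0.13 to 0.00 for ZNF135, from 0.20 to 0.38 for ZNF217 and from 0.09 to 0.47 for ZNF592 when that library was left out. The interval then lay within 2-fold for 91 of the 105 members (86.7%), beside 54.5% of the genes tested, and ran from 0.859 to 1.17 for ZNF135, from 0.661 to 0.899 for ZNF814 and from 0.970 to 1.73 for ZNF217. Positive fold changes again numbered 56 and negative ones 49, with a median of 0.02.

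No member of a protein class or role group was called (edgeR, adjusted p under 0.05). Log2 fold changes were positive in 24 and negative in 29 of the 53 KRAB members (median -0.02), and positive in 32 and negative in 19 of the 51 coding members without the box (median 0.09). The difference between the classes was not tested. The medians were 0.10 for the 10 promoter and chromatin factors, 0.11 for the 7 partners of repressor complexes, 0.02 for the 7 RNA, ribosome and mitosis factors and 0.41 for the 2 breast cancer linked genes, beside -0.01 for all tested genes. Without Con replicate 2 these medians were 0.09, 0.01, 0.03 and 0.72, with 0.00 for the KRAB members, 0.07 for the coding members without the box and 0.00 for all tested genes. By overlap, the median was -0.08 for the 25 members with at least 10% of exon bases under the opposite strand, 0.13 for the 24 with less and 0.01 for the 56 clear of it. Of the 31 members on chromosome 19, 17 were positive (median 0.03), and of the 74 elsewhere 39 were (median 0.03).

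The partners through which KRAB proteins silence chromatin were counted, from 3.26 CPM for CHD4 to 146 CPM for DNMT1, and did not pass the test either. All 32 listed co-repressor genes were tested and 0 were called (edgeR, adjusted p under 0.05), with 18 positive and 14 negative fold changes, a median of 0.01, and 1 gene at an unadjusted p under 0.05. TRIM28, the scaffold, named for its role after its values were seen, had 51.3, 56.0 and 40.9 CPM in Con against 51.9, 48.9 and 62.4 in Ang, with overlapping groups. SETDB1, the histone methyltransferase, had 23.2, 25.0 and 23.6 CPM in Con against 10.3, 20.7 and 21.4 in Ang, a log2 fold change of -0.45 ± 0.29 (SE). The Con libraries of SETDB1 were close together and above all Ang libraries, of which Ang replicate 1 was the lowest, and without it the log2 fold change was -0.19. Exons on the opposite strand overlie 13.4% of the exon bases of SETDB1, so its level is uncertain.

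MORC3, a chromatin ATPase that binds methylated histone tails, had 35.1, 24.7 and 33.0 CPM in Con against 48.1, 43.4 and 35.8 in Ang, a log2 fold change of 0.46 ± 0.23 (SE). MBD3, a NuRD subunit, had 6.34, 9.97 and 11.3 CPM in Con against 18.2, 13.4 and 13.0 in Ang, a log2 fold change of 0.70 ± 0.36 (SE). All Ang libraries were above all Con libraries for 2 of the 32 listed genes, MORC3 and MBD3, where this held for 3.62% of all tested genes. They were below for 3, SETDB1, CBX5 and the NuRD subunit GATAD2B, where this held for 4.54%. CBX5 was at 58.7 ± 0.917 CPM in Con against 53.3 ± 0.587 in Ang, and GATAD2B at 22.2 ± 1.41 against 18.1 ± 1.27 (SD, n = 3). GATAD2A, another NuRD subunit, had overlapping groups and a log2 fold change of 0.29 ± 0.22 (SE).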

How the data were processed

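Per the labels' protocols, poly-T beads captured the messenger RNA, cDNA was primed at random and 15 PCR cycles followed, with no strand-marking step named. For each of the 6 libraries the authors deposited read counts by Ensembl gene ID. Per the submitters' processing notes, HTSeq 0.9.1 and DESeq 1.39.0 were used with build GRCh38. Aligner, annotation release and strand setting: not given in the sources used here.

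Members, role lists, co-repressor and marker lists were chosen with earlier results of these data known. Named genes were, for each role list and the KRAB class, the 4 highest per length, the 5 highest members, the 10 members of smallest unadjusted p, any called, 3 genes on each side of the level threshold, the 4 with the largest opposite-strand share, and 4 co-repressors of smallest p. Other genes are named as examples, after their values were seen.

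Of 28979 gene IDs, 28918 had a symbol and 28192 were in GENCODE 29, which gave coordinates, exons (intersected with bedtools 2.31.1) and proteins. KRAB and SCAN domains were searched with HMMER 3.4 profiles (E-value 1e-05), built from windows of these proteins, and C2H2 fingers by their spacing pattern. Promoter motifs of at most 7 letters are reported, a limit set after longer ones had also been searched.

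The deposited counts were tested with edgeR 4.0.16 in R 4.3.3 (filterByExpr, trimmed mean of M values or TMM scaling, robust quasi-likelihood test, Benjamini-Hochberg over 14547 genes, threshold 0.05). CPM are TMM scaled unless stated. A count of 0 would allow 3 counts, or 0.552 to 0.890 CPM; this covers counting error only, since amplified reads lacking molecular identifiers may be copies of 1 molecule. No libraries held identical values, and the chi-square per gene between libraries was 7.20 to 14.0 within Con and 3.65 to 3.97 within Ang. The fit used the same dispersion of a gene for both groups. The test was tested on simulated counts for the 14547 genes in 3 runs, in which 3.96% of calls were false. Alternatives were relative log expression (RLE) scaling, other low-count filters, DESeq2 1.42.0, limma-voom (limma 3.58.1), a replicate block, leaving out each library, level thresholds of 10 and 30 CPM, and gaps of 100 and 500 kb.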

Additional observations from a re-analysis of the deposited data

How the results depend on the processing

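No ZNF member and no co-repressor gene was called under any alternative run, nor was a ZNF gene when the level threshold was 10 CPM (159 genes) or 30 CPM (41 genes). Over all genes, leaving out 1 library gave 0 to 40 calls, the 40 being without Con replicate 2 and a single call (1) without Con replicate 1. Members at an unadjusted p under 0.05 numbered 3 in the reported fit, 2 with DESeq2, 4 with limma-voom or RLE scaling and 1 to 9 when a library was left out, the 9 without Con replicate 2, 5 without Con replicate 3 and 1 without Ang replicate 1. Of the named genes' 456 alternative fold changes, 16 changed sign, none with a call. All-gene counts at that unadjusted p were 494 in the reported fit, 827 with no low-count filter and 1633 without Con replicate 2.

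The replicate numbers were not shown to pair the libraries. Deviations of same-numbered libraries correlated at 0.037, 0.0675 and 0.0356 across tested genes, against -0.0697 to 0.0302 for other pairs, and at 0.0992, 0.201 and 0.0984 across genes of at least 15 CPM, against -0.183 to 0.0802, and each library correlated best with its own number, which is a hint from the data and not from the design. With a replicate block 0 genes, 0 ZNF members and 0 co-repressor genes were called, and 5 members had an unadjusted p under 0.05. The members' median SE was 0.27 on the log2 scale; how much of it comes from depth and how much from spread between libraries was not tested.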
